A study of Oryza sativa with 39 samples.

Results

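The nuclear genes of photosystem II subunits were followed in the leaf transcriptomes of 13 rice lines. The 8 genes were chosen by identifier among the 109715 entries of the expression files, of which 44421 had a value above 0 in at least 1 library. They are PsbO (OS01G0501800), PsbP (OS07G0141400), PsbQ (OS07G0544800), the PsbR copies OS07G0147500 and OS08G0200300, PsbW (OS01G0773700), PsbX (OS03G0343900) and PsbY (OS08G0119800).

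Photosystem II is the thylakoid complex that uses light to oxidise water and pass electrons to plastoquinone. Its reaction centre and core antenna are encoded in the chloroplast, whereas the genes studied here lie in the nucleus and their products are imported. PsbO, PsbP and PsbQ sit on the lumenal side and support the manganese cluster that splits water. PsbR is needed for their stable assembly, and PsbW, PsbX and PsbY are small membrane proteins of the complex.

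The study asked how far genetic engineering (GE) and conventional cross-breeding each change rice leaves. Transcript levels are reported as FPKM, read fragments scaled to gene length and library size, for 39 libraries, 3 per line. Each library came from the middle of the second leaf blade of 5 pooled glasshouse plants at the tillering stage, 5 weeks after transplanting.

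The Xian/Indica (XI) group held the parent MH63 and 6 lines derived from it. T1C-19 carries a synthetic cry1C gene behind the maize ubiquitin promoter, and HH1 carries a fused cry1Ab/Ac gene behind the rice actin1 promoter. XIY63, XXY63, SY63 and JY63 came from crosses of MH63 with other varieties. The Geng/Japonica (GJ) group held the parent XS11 and 5 derived lines. KMD1 and KMD2 are separate homozygous events with an identical synthetic cry1Ab gene behind the maize ubiquitin promoter, and CJ03, JH1 and T202 came from crosses of XS11 with other varieties. All GE lines were made with Agrobacterium, each was represented by a single line, and no line was treated.

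The libraries held 3989869 to 8318598 reads on genes (median 5492824), as recovered from the steps of the FPKM values up to a common factor. The study reports far more clean reads per library, and the reason for the gap was not tested. All read numbers and counting errors given here hold only up to that factor. Pools of leaf tissue were measured, so fewer cells of a type and less RNA per cell cannot be told apart. The identifiers carried no descriptions, so the leaf label was not checked against a marker list. PsbP itself, a gene of green tissue, was the entry with the highest FPKM in 13 libraries and among the top 5 in 38 of 39. This is a single gene, and 5 other members were listed at 0 in every library, as described next.

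Only PsbP and PsbX had reads in every library. PsbO, PsbQ, PsbR (OS08G0200300), PsbW and PsbY were listed at 0 in all 39 libraries, that is 5 of the 8 members. The same held for 13906 of the 37830 reference loci in the files (36.8%). PsbO, PsbQ and PsbR are used by every green leaf cell, so these entries are described only as listed at 0. The files also list predicted and newly assembled entries without positions, and whether any of them covers a member was not tested.

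The other PsbR copy, OS07G0147500, was close to undetected. It had 30 reads in all 39 libraries together, with 0 reads in 22 libraries, 1 read in 9, 2 reads in 6, 4 reads in 1 and 5 reads in 1. The 4 reads were in KMD2 replicate 3, where the level was 1.13 FPKM, and the 5 reads were in MH63 replicate 3. A difference between lines was not detectable at this depth, and no fold change is given.

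PsbP and PsbX were read deeply. PsbP had 21929 to 72521 reads per library, or 0.368% to 1.33% of the reads on genes, and its counting error was at most 0.675% of the value. PsbX had 1376 to 6875 reads, with a counting error of at most 2.70%, and stood between rank 48 and rank 464 by FPKM. The coefficient of variation between replicates was 3.63% to 44.5% for PsbP and 3.08% to 66.5% for PsbX. The lowest of these, PsbX in XIY63, was close to the counting errors of its libraries (2.32% to 2.42%).

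PsbP, the extrinsic protein that helps hold calcium and chloride at the water-splitting site, ranged from 3335 FPKM in JY63 replicate 2 to 13880.3 FPKM in XS11 replicate 1. The GJ parent XS11 had 13880.3, 10663 and 10430.5 FPKM in replicates 1, 2 and 3, with a mean of 11658 ± 1928 (SD, n = 3, as for all line means here). JH1 had 9301, 11507 and 10181.5 FPKM, with a mean of 10329.7 ± 1110.2. These lines overlapped, and each of their libraries was above every library of the other lines, of which MH63 replicate 2 came closest.

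Next came T202 with 8293, 7521 and 7712 FPKM (mean 7842 ± 402) and CJ03 with 5325, 7489 and 8969.8 FPKM (mean 7261 ± 1833). SY63 was the highest XI line, at 7295, 7446 and 6935 FPKM (mean 7225 ± 262), and was the steadiest line of all for PsbP. The XI parent MH63 was among the least even, at 4101 FPKM in replicate 1, 9145 in replicate 2 and 5858 in replicate 3 (mean 6368 ± 2560). One MH63 library was thus 2.23 times as high as another, which widens the error of every comparison with MH63.

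The remaining lines lay close together. XXY63 had 5222, 5479 and 6110.1 FPKM (mean 5604 ± 457), and KMD2 had 5246, 4573 and 6928 FPKM (mean 5582 ± 1213). JY63 had 8212, 3335 and 5100.1 FPKM (mean 5549 ± 2469), the widest relative spread of the series. KMD1 was tight, at 5748, 5679.9 and 5199 FPKM (mean 5542 ± 299). HH1 had 5913, 5555 and 5090.5 FPKM (mean 5519 ± 412), and XIY63 had 4603, 5134 and 4642 FPKM (mean 4793 ± 296). T1C-19 had 5847, 4122 and 3527 FPKM, and its mean of 4499 ± 1205 was the lowest. Both GE lines from XS11 therefore sat among the XI lines, with means below those of the other GJ lines.

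PsbX, a small single-helix protein of the complex, followed a similar order at a lower level. It ranged from 307 FPKM in T1C-19 replicate 3 to 1822 FPKM in XS11 replicate 1. XS11 had 1822, 1205 and 1414 FPKM (mean 1480.4 ± 314), JH1 had 1069, 1675 and 1572 FPKM (mean 1439 ± 324), and T202 had 1789.6, 1293 and 1209 FPKM (mean 1430.4 ± 314). These 3 GJ lines overlapped fully. CJ03 was the most uneven GJ line, with 449, 835 and 1416 FPKM (mean 900 ± 487).

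In the middle of the order, HH1 had 740 FPKM in replicate 1, 953 in replicate 2 and 885 in replicate 3 (mean 859 ± 109). KMD2 had 769.99, 512 and 1005 FPKM (mean 762 ± 246), and SY63 had 825, 539 and 906 FPKM (mean 757 ± 193). JY63 had 1286, 352 and 601 FPKM (mean 746 ± 484), and MH63 had 336, 1231 and 545 FPKM (mean 704 ± 468). In both of these uneven lines the library that was high for PsbP was also the high one for PsbX.

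At the low end, KMD1 had 718, 665 and 628 FPKM (mean 670.2 ± 45.2), and XXY63 had 593, 515 and 705 FPKM (mean 604 ± 95.9). XIY63 had 447, 473 and 469.8 FPKM (mean 463 ± 14.3), and T1C-19 had 496, 418 and 307 FPKM (mean 407 ± 94.9). XIY63 lay entirely below XXY63, the only neighbours in the PsbX order that did not overlap. The difference did not pass the test (limma adjusted p = 0.142), and all XIY63 libraries lay below all XXY63 libraries for 12.6% of genes.

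**Figure D1:**
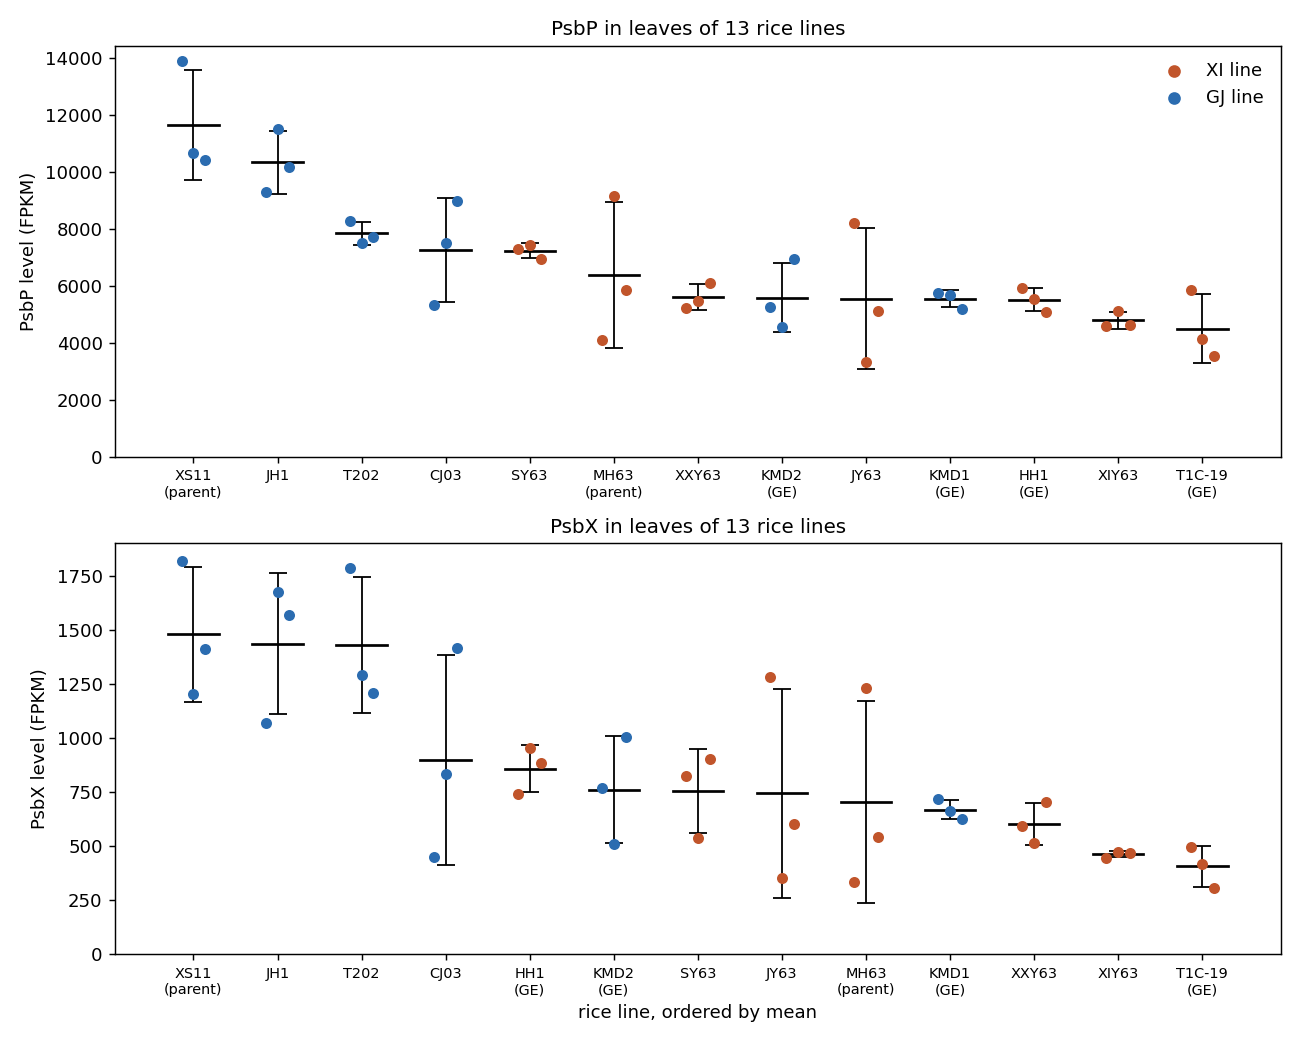
FPKM of PsbP (upper panel) and PsbX (lower panel) in the 13 lines, ordered by mean, with 1 point per library, a horizontal bar for the line mean and error bars of 1 SD (n = 3). XS11 had the highest mean for both genes (11658 and 1480.4 FPKM) and T1C-19 the lowest (4499 and 407 FPKM), and neighbouring lines mostly overlap.

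Both genes differed among the 13 lines, as most genes did. By limma's F-test on log2(FPKM + 1) with Benjamini-Hochberg adjustment over all genes, adjusted p was 0.000108 for PsbP and 0.000966 for PsbX, whereas 78.2% of the 30257 tested genes passed. PsbR (OS07G0147500) did not, at adjusted p = 0.646. Without replicate 3 of every line, PsbX no longer passed (limma adjusted p = 0.0922). Differences between lines made up 71.2% of the variance of log2 PsbP and 65.0% of that of log2 PsbX, and the highest line mean was 2.59 times the lowest for PsbP and 3.63 times for PsbX.

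Lines next to each other in each order mostly overlapped. The order was set by the same means, so closeness of neighbours was built in and does not show a gradual order. Of the 12 pairs of neighbours in each order, 11 overlapped for PsbP and 11 for PsbX, and none was called, although JH1 lay entirely above T202 for PsbP (limma adjusted p = 0.0384), as for 17% of genes. A call needed both a limma adjusted p below 0.05 and a change of 2-fold or more in either direction. Over all 78 pairs of lines, PsbP was called in 9 and PsbX in 13, and pooled over the pairs 21.7% of gene tests were called. XS11 was a member of 7 of the 9 pairs for PsbP and 4 of the 13 for PsbX. Among pairs of XI lines, PsbP was called in 0 of 21 and passed adjusted p alone in 4, while PsbX was called in 1, HH1/T1C-19 (log2 fold change 1.09, SE 0.19, limma adjusted p = 0.00229). Pooled over these 21 pairs, 11.4% of gene tests were called and 20.5% passed adjusted p alone, and in HH1/T1C-19 25.5% of genes were called. Among the 15 pairs of GJ lines, PsbP was called in 2 and PsbX in 3, each pair with KMD1 or KMD2, where 8.78% of gene tests were called. Among the 42 pairs between subspecies, PsbP was called in 7 and PsbX in 9, where 31.0% of gene tests were called. Pairs that share a line share its libraries.

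Both GE lines from XS11 carried less PsbP transcript than their parent. In KMD1, PsbP stood at 47.5% of the XS11 mean, and none of the 3 KMD1 libraries reached the lowest XS11 library. The log2 fold change of KMD1/XS11 was -1.06 (SE 0.12, 95% confidence interval -1.33 to -0.79, limma adjusted p = 0.00579). PsbX fell with it, to 45.3% of the XS11 mean and again without overlap (log2 fold change -1.12, SE 0.16, interval -1.48 to -0.76, adjusted p = 0.0155). Both measured subunits were thus called lower in KMD1/XS11, where 3.93% of tested genes were called and 1.69% were called lower. All libraries of KMD1 lay below all of XS11 for 18.9% of tested genes.

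KMD2 carries the identical transgene in a separate event and shares the XS11 libraries with the comparison above. PsbP stood at 47.9% of the XS11 mean, without overlap (log2 fold change -1.07, SE 0.17, interval -1.46 to -0.68, limma adjusted p = 0.00628). PsbX stood at 51.5% without overlap, and at a log2 fold change of -0.99 (SE 0.25, interval -1.58 to -0.40, adjusted p = 0.0295) it passed adjusted p but was short of a 2-fold change. In KMD2/XS11 13.4% of tested genes were called, 6.81% were called lower and 24.4% passed adjusted p alone, and for 23.3% all KMD2 libraries lay below all XS11 libraries. KMD1 and KMD2 differed little from each other, by 0.01 on the log2 scale for PsbP (SE 0.14, limma adjusted p = 0.978) and by -0.13 for PsbX (SE 0.22, adjusted p = 0.766).

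These 4 values lie near the 2-fold limit, and XS11 replicate 1, the highest library for both genes, had a part in the calls. Without it the log2 fold changes were -0.93 for PsbP and -0.96 for PsbX in KMD1, with limma adjusted p of 0.00564 and 0.0278, and -0.94 for PsbP in KMD2 with adjusted p of 0.0169, so none was called. The PsbX call of KMD1 also ended without KMD1 replicate 2 (adjusted p = 0.0779), KMD1 replicate 3 (0.0787) or XS11 replicate 3 (0.0593), and the PsbP call of KMD2 ended without KMD2 replicate 2 (log2 fold change -0.94). With FPKM rescaled to a fixed sum per library (TPM scaling), none of these was called, with log2 fold changes of -0.72 and -0.78 in KMD1 (limma adjusted p = 0.0158 and 0.0205) and -0.61 and -0.52 in KMD2 (0.0137 and 0.0978), while the median of all genes moved up by 0.26 and 0.35. PsbX in KMD2 reached a call without KMD2 replicate 3 (-1.21) or XS11 replicate 2 (-1.13).

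The conventional GJ lines gave a different picture for each line. JH1 was close to XS11 for both genes, with log2 fold changes of -0.17 for PsbP (interval -0.49 to 0.15, limma adjusted p = 0.678) and -0.05 for PsbX (interval -0.56 to 0.47, adjusted p = 0.952). In JH1/XS11 3.05% of genes were called. T202 had less PsbP than XS11, at 67.3% of its mean and without overlap (log2 fold change -0.56, SE 0.11, adjusted p = 0.0156, under the 2-fold limit), but PsbX was at 96.6% of the XS11 mean (log2 fold change -0.05, interval -0.51 to 0.41, adjusted p = 0.907). In T202/XS11 9.69% of genes were called, 14.4% passed adjusted p alone, and for 16.5% all T202 libraries lay below all XS11 libraries.

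CJ03 had the lowest means of the conventional GJ lines for both genes. Its PsbP was at 62.3% of the XS11 mean (log2 fold change -0.70, SE 0.20, limma adjusted p = 0.0564) and its PsbX at 60.8% (-0.85, SE 0.39, adjusted p = 0.175), against 10.3% of genes called in CJ03/XS11. The PsbP libraries of CJ03 and XS11 did not overlap, as all CJ03 libraries lay below all XS11 libraries for 20.2% of genes. Without CJ03 replicate 3, its highest library, PsbX was called (log2 fold change -1.25, adjusted p = 0.0403). In all, 5 of 5 derived GJ lines had a mean log2 level below XS11 for PsbP and 5 of 5 for PsbX. As these comparisons share the XS11 libraries, a high XS11 would lower all of them at once.

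None of the XI lines was called against MH63 for either gene. PsbP had log2 fold changes from -0.46 in T1C-19 (interval -1.14 to 0.23) to 0.26 in SY63 (interval -0.34 to 0.86), with limma adjusted p from 0.420 to 0.877. PsbX ranged from -0.61 in T1C-19 (interval -1.59 to 0.38) to 0.49 in HH1 (interval -0.46 to 1.44), with adjusted p from 0.380 to 0.985. The intervals for PsbX included a 2-fold change in each of these 6 lines, so such a change was neither shown nor bounded at this spread of MH63.

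Among the GE lines from MH63, T1C-19 stood at 70.6% of the MH63 mean for PsbP and 57.8% for PsbX. HH1 stood at 86.7% for PsbP (log2 fold change -0.13, limma adjusted p = 0.713) and 122% for PsbX (adjusted p = 0.380). Without MH63 replicate 2, PsbX in HH1/MH63 had a log2 fold change of 0.996 and an adjusted p of 0.00706, just under the 2-fold limit. In that fit 7065 of 18808 tested genes passed adjusted p, as did 38.5% with all 6 libraries. The shares of all genes called were 2.19% in T1C-19/MH63 and 17.6% in HH1/MH63.

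The conventional XI lines lay on both sides of MH63. XIY63 was at -0.33 for PsbP and -0.39 for PsbX on the log2 scale, XXY63 at -0.11 and -0.02, SY63 at 0.26 and 0.28, and JY63 at -0.22 and 0.09, each within its error by limma. The shares of all genes called were 8.73% in XIY63/MH63, 4.13% in XXY63/MH63, 8.26% in SY63/MH63 and 5.54% in JY63/MH63. JY63/MH63 was the only comparison with a parent in which PsbR (OS07G0147500) passed the low-value filter, and it was not called there.

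**Figure D2:**
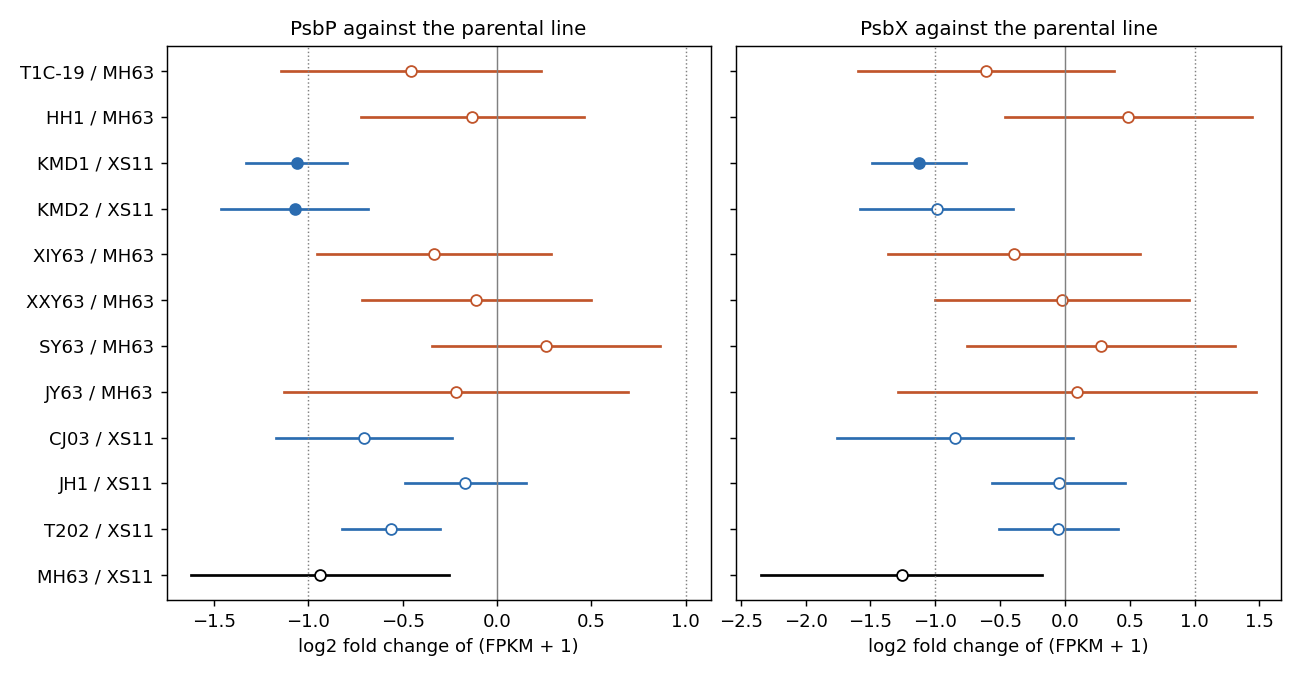
Log2 fold change of each line over its parent, with 95% confidence intervals from limma, for PsbP (left) and PsbX (right), and MH63 over XS11 in black at the bottom (orange XI, blue GJ). Filled points are called and dotted lines mark a 2-fold change. PsbP was called in KMD1 (-1.06) and KMD2 (-1.07) and PsbX in KMD1 (-1.12), and no XI line was called.

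The parents themselves differed by about as much as the GE lines differed from XS11. MH63/XS11 had a log2 fold change of -0.94 for PsbP (SE 0.28, limma adjusted p = 0.0306), without overlap of the libraries but under the 2-fold limit. For PsbX it was -1.26 (SE 0.45, adjusted p = 0.0537), with MH63 replicate 2 inside the range of XS11. In this comparison 33.8% of genes were called and 52.9% passed adjusted p alone, and for 32.1% all MH63 libraries lay below all XS11 libraries. Without MH63 replicate 2 both genes were called, at -1.24 for PsbP (adjusted p = 0.00314) and -1.77 for PsbX (adjusted p = 0.00273). PsbP was also called without XS11 replicate 3 (-1.01, adjusted p = 0.0468). Leaving out any of the other 4 libraries ended the pass of PsbP, with its log2 fold change as small as -0.66 and limma adjusted p up to 0.0841, and PsbX then had adjusted p up to 0.127. With the intron percentage described further on as a covariate, both signs turned, to 0.49 for PsbP (limma adjusted p = 0.496) and 1.19 for PsbX (adjusted p = 0.156).

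The XI lines and the GJ lines, as groups, differed in the same direction. Over line means, PsbP averaged 5651 ± 921 FPKM in XI (SD, n = 7 lines) and 8036 ± 2500.3 FPKM in GJ (n = 6 lines), a log2 difference of -0.48 with a limma adjusted p of 0.0484 and an exact two-sided permutation p of 0.0286 over 1716 splits. PsbX averaged 649 ± 165 FPKM in XI and 1114 ± 376 FPKM in GJ, a log2 difference of -0.77 with an adjusted p of 0.0197 and an exact permutation p of 0.0134. Neither reached a 2-fold difference, while 17.2% of all genes were called and 35.8% passed adjusted p alone. The line means overlapped, since KMD1 and KMD2 lay within the XI range for both genes. Every XI line was MH63 or derived from it, and every GJ line was XS11 or derived from it. The tests took lines as separate units and did not correct for this relatedness, so these p-values do not cover other XI or GJ parents. With each line left out in turn, adjusted p ranged from 0.0216 to 0.110 for PsbP and from 0.00965 to 0.0487 for PsbX. Without replicate 3 of every line, neither passed, with limma adjusted p of 0.115 for PsbP and 0.0549 for PsbX, and without replicate 1 PsbP had 0.0510.

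Neither gene was called between GE and conventional lines. The 4 GE lines averaged 5286 ± 525 FPKM of PsbP and the 7 conventional lines 6943 ± 1863 FPKM, with a log2 difference of -0.39 within subspecies (limma adjusted p = 0.961, exact permutation p = 0.0533 over 150 assignments, which allow no p below 0.00667). PsbX averaged 675 ± 194 and 906 ± 386 FPKM (log2 difference -0.39, exact permutation p = 0.180). Only 2 of 30257 genes were called in this contrast (0.00661%). The PsbP difference was -0.59 among GJ lines and -0.19 among XI lines, and a difference between these was not shown by the exact permutation test (p = 0.347). For PsbX they were -0.74 and -0.05 (exact permutation p = 0.267). Among GJ lines, GE line means lay below all conventional ones, at 5542 to 5582 against 7261 to 10330 FPKM for PsbP. The exact permutation p was 0.1, the lowest that 10 splits allow. For PsbX the GJ means were 670 to 762 against 900 to 1439 FPKM (exact permutation p = 0.2). Among XI lines, the GE and conventional means overlapped for both genes.

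PsbP and PsbX rose and fell together from library to library within a line. After subtraction of the line means from log2(FPKM + 1), Pearson's r over the 39 libraries was 0.900 (permutation within lines, adjusted p = 0.00027 over 9 relations, raw p = 3.0e-05) and Spearman's rho was 0.753 (adjusted p = 0.000225). Without the 2 libraries farthest from the median of PsbP, r was 0.854. Both genes deviated in the same direction in 30 of 39 libraries, and in 11 of 13 lines the same replicate was highest for both, while in 8 of 13 it was lowest for both. Values of a library share its scaling, so the relation is not free of it. How often other genes moved together in this way was not tested. Over line means, r was 0.903 in the 6 GJ lines (exact permutation p = 0.0125, adjusted p = 0.0225) and 0.719 in the 7 XI lines (exact p = 0.0645, adjusted p = 0.0725), and without the 2 farthest XI lines it was 0.481.

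**Figure D3:**
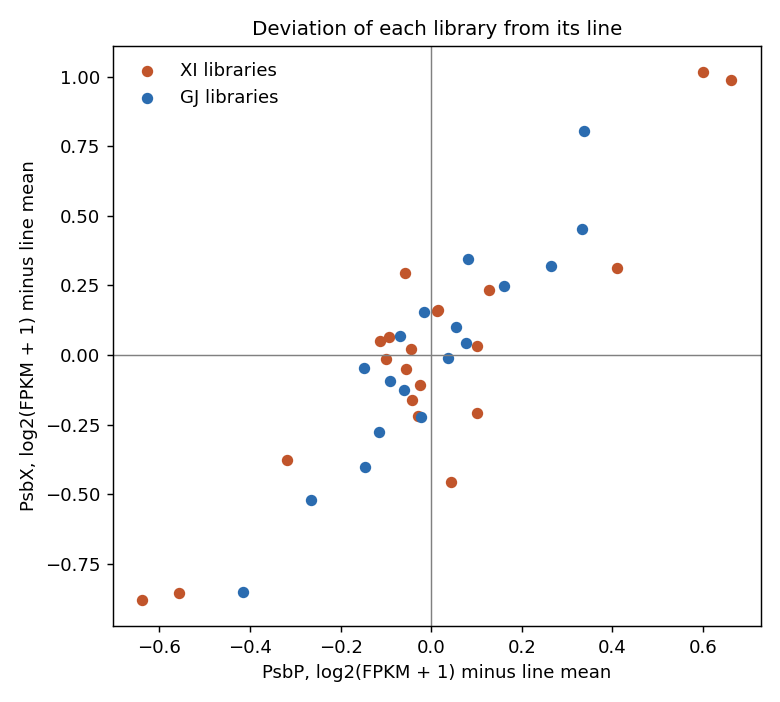
Each point is 1 of the 39 libraries, placed by how far its log2(FPKM + 1) of PsbP (horizontal) and PsbX (vertical) lay from the mean of its line. Pearson's r was 0.900, and 30 of the 39 points lie in the lower left or upper right of the plot.

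A measure of read distribution moved with both genes. The percentage of reads that fell in introns is tabulated for each library by the study and was used here only in correlations and as a covariate. Within lines it was related inversely to PsbP, with r = -0.688 and rho = -0.673 (permutation adjusted p = 0.00069 and 0.00084), and to PsbX, with r = -0.773 and rho = -0.770 (adjusted p = 0.00027 and 0.000225). Without the 2 libraries farthest in intron percentage, r was -0.638 and -0.710. Over line means the relation with PsbX had r = -0.932 and rho = -0.929 in XI (exact permutation adjusted p = 0.00759 and 0.0152). In GJ it had r = -0.934 and rho = -0.886 (exact permutation adjusted p = 0.05 and 0.0429), at the limit. The r with PsbP was -0.600 in XI (adjusted p = 0.151) and -0.824 in GJ (adjusted p = 0.0725). Libraries with more intron reads thus had less PsbP and PsbX. How many of all genes followed the percentage was not tested, so the relation is not shown to be particular to these genes.

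With this percentage as a covariate, none of the differences from XS11 in the KMD lines remained past the limits. The log2 fold change of KMD1/XS11 was -0.64 for PsbP (SE 0.40, limma adjusted p = 0.887) and -0.17 for PsbX (SE 0.41, adjusted p = 0.962), and that of KMD2/XS11 was -0.30 (SE 0.23, adjusted p = 0.732) and 0.24 (SE 0.29, adjusted p = 0.848). The SE of PsbP in KMD1/XS11 had been 0.12, and the wider interval (-1.60 to 0.32) still held -1.06. In KMD2/XS11 the intervals (-0.84 to 0.24 and -0.46 to 0.94) did not hold the earlier values. Where the percentage also differs between the lines of a pair, 6 libraries cannot tell it apart from line. This limit holds for all pair fits with the covariate. The covariate left 0 of all tested genes called in KMD1/XS11 and 93 in KMD2/XS11, so few genes of any kind were called in these fits. PsbP in T202/XS11 kept its difference, at -0.55 (limma adjusted p = 0.0135), and 4139 of 20513 tested genes passed adjusted p in that fit. PsbX in HH1/MH63 was called lower, at -2.19 (SE 0.31, limma adjusted p = 0.0456), the opposite sign to its fold change of 0.49 without the covariate. In that HH1/MH63 fit 296 of 19968 tested genes were called (1.48%), 153 of them lower. Over line means, the XI minus GJ difference with the covariate was -0.34 for PsbP (adjusted p = 0.0890) and -0.51 for PsbX (adjusted p = 0.00466).

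PsbX also varied relative to PsbP, a ratio within a library that no scaling between libraries can move. Over all libraries PsbX amounted to 7.24% of the PsbP level (SY63 replicate 2) up to 21.6% (T202 replicate 1), with a median of 11.7%. T202 had the highest line mean, with 21.6%, 17.2% and 15.7% in its 3 libraries (mean 18.1% ± 3.07), above XS11 with 13.1%, 11.3% and 13.6% (mean 12.7% ± 1.20). The T202 and XS11 libraries did not overlap, but T202 overlapped CJ03, whose replicate 3 was at 15.8%, and HH1. The share is computed from the same values as the fold changes above, in which T202 had less PsbP than its parent and a similar level of PsbX. It is therefore not a separate result.

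HH1 had the next highest share, 12.5%, 17.2% and 17.4% (mean 15.7% ± 2.75), against 8.19%, 13.5% and 9.30% in MH63 (mean 10.3% ± 2.78). These overlapped. The other GE lines kept close to their parents, with means of 12.1% ± 0.394 in KMD1, 13.5% ± 1.96 in KMD2 and 9.12% ± 0.899 in T1C-19. Line means averaged 11.3% in XI and 13.7% in GJ (exact permutation p = 0.0624), and no difference was shown between GE and conventional lines within subspecies (log2 difference -0.00, exact permutation p = 1).

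**Figure D4:**
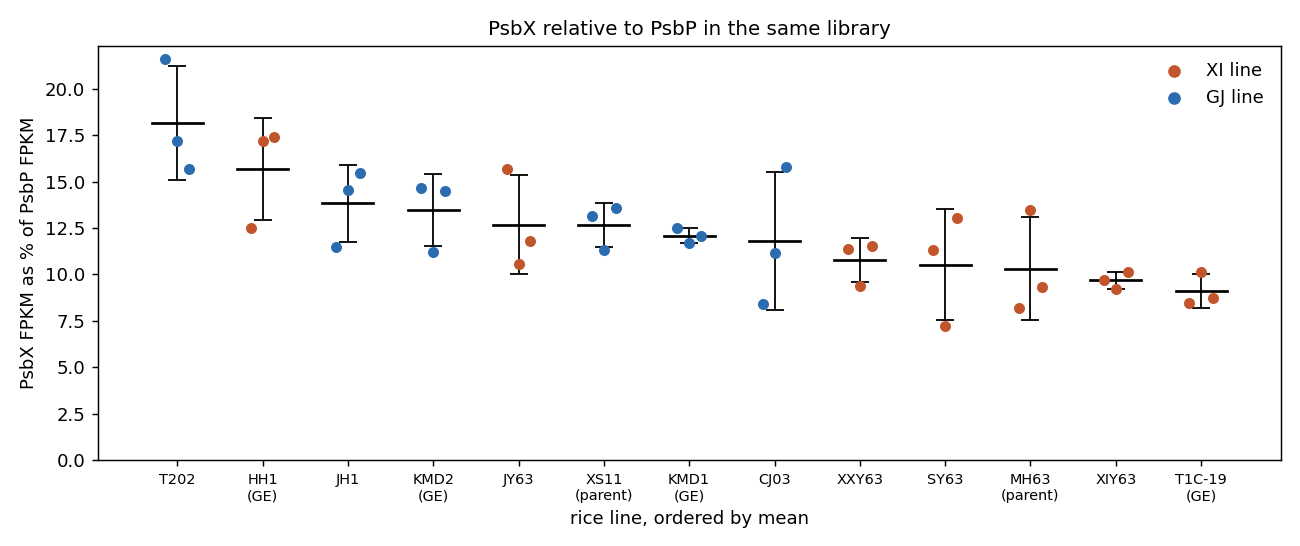
FPKM of PsbX as a percentage of the FPKM of PsbP in the same library, for the 13 lines ordered by mean, with 1 point per library, a bar for the mean and error bars of 1 SD (n = 3). T202 (18.1%) and HH1 (15.7%) had the highest means and T1C-19 (9.12%) the lowest.

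The genes whose line means were most like those of each member were sought among 6524 genes with a mean FPKM of at least 10, as a description over 13 lines that share their libraries. For PsbP they were a newly assembled entry (Pearson's r 0.967, 492 FPKM in XS11 and 208 FPKM in T1C-19) and OS03G0134300 (r 0.948, 606 and 289 FPKM). PsbX ranked 27 in that list, with r 0.901. For PsbX they were OS05G0150800 (r 0.986, 356 FPKM in XS11 and 154 FPKM in T1C-19) and OS02G0581100 (r 0.975, 5327 and 1046 FPKM), and PsbP ranked 231.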

How the data were processed

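Leaf RNA of 13 rice lines was sequenced in 39 libraries. The authors used HISAT2 2.09 to align clean reads to IRGSP-1.0 and featureCounts 1.5.0-p3 to count them by gene, and deposited FPKM values, which include a scaling between libraries. Reads per gene were recovered from the FPKM steps: 100% of 1036152 values above 0 lay within 0.01 of a whole read, up to a common factor. Replicates are pools of separate plants.

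Values were tested as log2(FPKM + 1) with limma 3.58.1 in R 4.3.3, with a variance trend over mean log2 reads, on genes that reached an FPKM of 0.5 in 3 or more libraries of the fit. Fold changes are on this scale. The Benjamini-Hochberg adjustment covered all genes tested, and the test was tried on simulated data. Pairs of lines used their 6 libraries. Subspecies and breeding contrasts used line means with exact permutation tests, and relations within lines used 100000 permutations. Lines derived from the same parent are related, which no test corrected. The Python version was 3.11.15, with scipy 1.17.1, pandas 2.3.3, matplotlib 3.10.9 and numpy 2.4.6. Counting errors and read numbers cover counting only.

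The members, lists and tests were chosen with earlier results of these data known. Named genes were the 8 members and, for PsbP and PsbX, the only members above the level set for this search, the 2 genes most like each over line means. Lists of other photosynthesis genes and of leaf and seed markers were to be drawn by description, but the reference table held no descriptions and matched only 1 identifier, so these lists were not used here. As alternatives, a pseudocount of 0.1, no filter, the default trend, TPM scaling, no minimum fold change, voom on recovered reads, all 39 libraries, a replicate block, the intron percentage as a covariate, and each replicate or line left out were tried.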

Additional observations from a re-analysis of the deposited data

Results flagged for a closer look

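As a line mean, the level of PsbX as a percentage of PsbP in T202 was 18.1%, while those of the other 5 GJ lines lay between 11.8% and 13.8%. It was the only one of 6 groups of line means tested in which a line lay outside Dixon's limit for its group, and chance marks about 1 group in 20. All 3 T202 libraries, at 21.6%, 17.2% and 15.7%, were above the XS11 libraries, but the lowest of them was below CJ03 replicate 3 at 15.8%.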

How the results depend on the processing

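The XS11 comparisons depended on scaling. TPM scaling moved the median of all genes by 0.26 (KMD1/XS11), 0.35 (KMD2/XS11), 0.24 (CJ03/XS11), 0.31 (MH63/XS11), 0.11 (XIY63/MH63), -0.18 (HH1/MH63) and -0.14 (SY63/MH63) on the log2 scale. The called members went to 0 in both KMD comparisons, with log2 fold changes of -0.72 and -0.61 for PsbP, which were -0.98 and -0.94 relative to that median. PsbX had -0.78 and -0.52, which were -1.04 and -0.86 relative to that median. With the intron covariate the called members were 0 in both, and 1 in HH1/MH63, where 1.48% of all genes were called. In KMD1/XS11, 1 member was called without the filter (0.80% of all genes) and 1 with all 39 libraries in 1 model (3.59%). Without a minimum fold change the counts were 2 in KMD2/XS11, 1 in T202/XS11, 1 in MH63/XS11 and 2 in XI against GJ. The shares of all genes were then 24.4%, 14.4%, 52.9% and 35.8%. In MH63/XS11, voom and all 39 libraries each gave 1, where 9490 of 21832 and 7582 of 30257 genes were called. The number of all genes called in KMD1/XS11 was 819, with 1469 under TPM scaling, 1355 with voom, 501 with the default trend and 273 without the filter. With 1 replicate left out, counts ranged from 0 to 2 in KMD1/XS11, KMD2/XS11 and MH63/XS11, from 0 to 1 in CJ03/XS11 and from 1 to 2 in the test over 13 lines. Of all genes, 55 of 19827 to 1756 of 20094 were then called in KMD1/XS11, and 1369 of 19709 to 3356 of 19950 in KMD2/XS11. The range was 4933 of 19178 to 6293 of 19698 in MH63/XS11, and 802 of 19663 to 2014 of 19737 in CJ03/XS11. Over 13 lines it was 19134 of 28645 to 20110 of 28629.

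Signs changed with the intron covariate for PsbP in T1C-19 (0.0156), XIY63 (0.44), SY63 (-0.36), JH1 (0.0726) and MH63/XS11 (0.49), and for PsbX in T1C-19 (0.12), HH1 (-2.19), KMD2 (0.24), XIY63 (0.89), SY63 (-0.77), JY63 (-1.03), CJ03 (0.44), JH1 (0.55) and MH63/XS11 (1.19). TPM scaling turned PsbX in XXY63 (0.0356), JH1 (0.062) and T202 (0.0763). Leaving out 1 library gave both signs for PsbP in HH1 (-0.41 to 0.17), XXY63 (-0.39 to 0.19), SY63 (-0.0192 to 0.56) and JY63 (-0.55 to 0.10), and for PsbX in XIY63 (-0.82 to 0.11), XXY63 (-0.45 to 0.49), SY63 (-0.15 to 0.79), JY63 (-0.40 to 0.60), JH1 (-0.19 to 0.15) and T202 (-0.22 to 0.11). The cause was not tested.

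Replicate numbers were not treated as pairs, and whether they pair the samples was not settled. None of the 12 comparisons with a parent or between parents had all 3 same-number correlations above 0.1, but this limit cannot exclude pairing. The mean of the 3 correlations ran from -0.0771 in CJ03/XS11 to 0.105 in KMD1/XS11. The replicate block changed no count of members, with 2 called in KMD1/XS11 and 1 in KMD2/XS11, and limma adjusted p of 0.00470 for PsbP and 0.00890 for PsbX in KMD1/XS11. Over all genes, the block raised the number called in KMD1/XS11 from 819 to 1099, and those passing adjusted p from 1669 to 3075. In JY63/MH63 it lowered the number called from 1143 to 639.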
